A study of Mus musculus with 6 samples.

Results

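The 40 genes described here are cell cycle genes commonly used to recognise dividing cells by their RNA, listed by name. Of these, 23 act in the G2 phase and in mitosis (G2/M genes) and 17 act in DNA synthesis or in the entry into it (S genes). All 40 were found by symbol among the 32285 genes listed in each of 6 single-cell libraries of mouse autonomic ganglia, and their RNA was followed in neurons, glia, fibroblasts, vessels and macrophages.

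The libraries came from whole stellate, sphenopalatine, coeliac, lumbar and pelvic ganglia of mouse pups at postnatal day 5, which carry a Cre recombinase transgene and RosatdT, a Cre-dependent tdTomato reporter at the Rosa locus. All 6 libraries share this genotype and age, so none serves as an untreated control, and the classes of cells within a library are compared with each other instead. Pups of both sexes were used, and the number of pups in a library is not given in the sources used here, nor is a sort of the cells. The stellate, sphenopalatine and first pelvic library (pelvic 1) were made in a first round with version 2 of the droplet kit, and the coeliac, lumbar and second pelvic library (pelvic 2) in a second round, at another facility, with version 3. Only the pelvic ganglion has 2 libraries. For the other ganglia, a difference between ganglia of different rounds cannot be told apart from the round. Ganglia of the same round share kit and facility, but none has a replicate within it, and ganglia were not tested against each other.

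A dividing cell passes from G1 into S phase, in which its DNA is copied, and through G2 into mitosis, in which the copies are parted. S genes are switched on by E2F factors when cyclin-dependent kinases phosphorylate the pocket proteins that hold E2F in check, and G2/M genes are switched on later through the MuvB complex with Mybl2 and Foxm1, which binds a promoter element called CHR (cell cycle genes homology region), often with CCAAT boxes nearby that are bound by NF-Y. Postmitotic neurons have left the cycle, whereas satellite glia and Schwann cells, fibroblasts, vascular cells and tissue macrophages can divide after birth.

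The 6 libraries held 30777 droplets and 479078441 UMIs (unique molecular identifiers, each standing for a captured RNA molecule), between 39353313 and 113352559 per library. After filtering 21442 cells were kept, and the classes used below took in 8233 glia, 7052 neurons, 3249 fibroblasts, 1344 vascular cells (endothelial and mural cells together) and 588 macrophages. Neurons were much deeper than the other cells, with a median of 26651 to 108598 UMIs over the libraries against 3475 to 12117 in glia. Each class carried its markers. A set of 12 glial markers summed to between 12038 and 17558 CPM (the UMIs of a gene per 1000000 UMIs of the class in that library) in glia and to between 61.5 and 300 CPM in neurons, while 9 neuronal markers summed to between 19339 and 24467 CPM in neurons and to between 858 and 3678 CPM in glia. In their own classes, 8 fibroblast markers summed to between 34958 and 63697 CPM, 8 endothelial markers to between 4522 and 6022 CPM, 8 mural markers to between 2398 and 7278 CPM and 8 macrophage markers to between 7144 and 15173 CPM. Fibroblast markers also summed to between 2386 and 7962 CPM in glia, and glial markers to between 204 and 742 CPM in fibroblasts. The part of stray RNA in these sums was not tested. Red cell markers reached between 3219 and 24942 CPM in vessels. They reached up to 8577 CPM in macrophages, 3491 in glia, 2773 in fibroblasts and 608 in neurons. At most 94 droplet barcodes were shared by any pair of libraries, and 49 among kept cells.

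The promoters of the members show the elements through which the 2 groups of genes are known to be read. RefSeq promoters of GRCm38.p6 were matched for 33 of the 40 genes, with 34 promoters because Mcm7 has a second start, and each was searched from 250 bases before to 50 bases after the start of transcription, on both strands, for the CHR (TTTGAA or TTCGAA), the CCAAT box (CCAAT) and 4 forms of the E2F site (TTCCCGC or TTGGCGC or TTCGCGC or TTGCCGC). A CHR was found in 15 of 19 G2/M promoters and in 3 of 15 S promoters, against 19.2% of all 32851 mouse promoters over the same window. CCAAT boxes were found in 17 of 19 G2/M and 10 of 15 S promoters, against 37.4% of all. The E2F forms were found in 4 of 19 G2/M and 10 of 15 S promoters, against 9.57% of all, and a CHR together with a CCAAT box in 15 of 19 G2/M and 3 of 15 S promoters, against 7.52% of all. In 14 of the 15 G2/M promoters with a CHR, a copy lay within 40 bases of the start, the exception being Mki67. A match describes letters in this window and does not show that a factor bound there in these cells.

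The following promoters, from 170 bases before to 30 bases after the start, on the strand of the gene and from 5′ to 3′, are shown because they belong to members with high levels in glia and carry the elements in the arrangement of their group. The capitals mark CHR and CCAAT boxes in the 3 G2/M genes and CCAAT boxes and E2F forms in the 3 S genes, on either strand (CCAAT reads ATTGG on the reverse strand, where TTTGAA reads TTCAAA), and neighbouring E2F forms and CCAAT boxes can overlap, as at the 3′ end of Mcm7.
Top2a: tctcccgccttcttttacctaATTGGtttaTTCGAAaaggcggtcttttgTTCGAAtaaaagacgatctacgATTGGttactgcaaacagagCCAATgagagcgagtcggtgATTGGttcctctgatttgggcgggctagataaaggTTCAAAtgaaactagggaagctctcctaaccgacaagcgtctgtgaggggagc
Ube2c: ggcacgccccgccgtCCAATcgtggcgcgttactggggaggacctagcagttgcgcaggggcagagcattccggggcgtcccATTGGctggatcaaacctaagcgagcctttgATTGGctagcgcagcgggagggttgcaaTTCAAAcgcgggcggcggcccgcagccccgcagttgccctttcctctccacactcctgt
Cenpf: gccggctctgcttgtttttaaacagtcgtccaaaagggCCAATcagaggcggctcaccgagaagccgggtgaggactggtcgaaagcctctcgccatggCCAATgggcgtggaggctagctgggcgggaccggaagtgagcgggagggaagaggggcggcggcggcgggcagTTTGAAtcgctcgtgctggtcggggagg
Mcm6: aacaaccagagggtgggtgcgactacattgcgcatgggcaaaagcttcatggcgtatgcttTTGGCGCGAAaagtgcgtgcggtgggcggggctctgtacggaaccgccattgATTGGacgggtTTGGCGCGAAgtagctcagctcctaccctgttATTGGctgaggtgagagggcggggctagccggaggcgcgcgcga
Rrm1: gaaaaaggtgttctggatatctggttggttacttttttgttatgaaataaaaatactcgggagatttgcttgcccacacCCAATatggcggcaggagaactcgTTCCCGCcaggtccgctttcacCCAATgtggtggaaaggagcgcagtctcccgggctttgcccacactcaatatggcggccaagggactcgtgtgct
Mcm7: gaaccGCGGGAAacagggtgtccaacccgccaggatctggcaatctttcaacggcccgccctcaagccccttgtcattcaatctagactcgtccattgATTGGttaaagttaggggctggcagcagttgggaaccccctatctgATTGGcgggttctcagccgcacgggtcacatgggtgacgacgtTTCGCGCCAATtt
The printed stretch of Top2a lies at chr11:99024160-99024359 on the minus strand, with a CHR 140, 120 and 23 bases before the start and 4 CCAAT boxes upstream of the last of these. Ube2c (chr2:164769759-164769958, plus strand) has its CHR 29 bases before the start and CCAAT boxes at 155, 88 and 57 bases. Cenpf (chr1:189688057-189688256, minus strand) has a CHR 2 bases after the start, with CCAAT boxes 132 and 71 bases before it. Mcm6 (chr1:128359676-128359875, minus strand), Rrm1 (chr7:102441525-102441724, plus strand) and Mcm7 (chr5:138171854-138172053, minus strand) have no CHR in the printed stretch, and hold 4, 1 and 3 E2F forms there. Other members with high levels in glia lacked this arrangement. The wider window of Birc5 held none of the elements, and that of Pcna held a CCAAT box but no E2F form. Rrm2 had its E2F form 235 bases before the start, outside the stretch of the printed length.

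Relative to all their UMIs, neurons held almost no RNA of the G2/M genes, and glia held a good deal of it in every ganglion. Neurons had medians of 26651 to 108598 UMIs per cell and glia of 3475 to 12117. The gap in UMIs per cell is thus smaller than the gap in CPM given here. Summed over the 23 genes, the level was 937 to 2176 CPM in the 6 glial populations, with a median of 1674 CPM, and 25.1 to 43.6 CPM in the neurons of the same libraries, with a median of 32.9 CPM. All 23 were higher in glia by edgeR's quasi-likelihood test (Benjamini-Hochberg adjusted p under 0.05 over 14553 genes), with a median log2 fold change of 5.63. Of all genes tested, 37.0% were called higher in glia and 37.5% higher in neurons, 74.5% in all. Such sums do not tell more cycling cells apart from more RNA per cycling cell, and shares of cells are given separately below. Because the counts come from the 3′ end of the RNA and are not divided by length, genes are compared between classes and not with each other.

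Mki67 (chr7:135689784-135716361, minus strand), which encodes the Ki-67 protein that coats mitotic chromosomes, stood in glia at 64.7 CPM in the stellate, 41.1 in the sphenopalatine, 56.2 in pelvic 1, 183 in the coeliac, 205 in the lumbar and 198 in pelvic 2. In neurons it stood at 1.46, 1.10, 2.53, 2.22, 1.82 and 2.79 CPM in the same order. The lowest glial library thus lay far above the highest neuronal one, and the log2 fold change was 5.63 ± 0.37 (SE; adjusted p = 7.5e-13). The glial values of the second round were all above those of the first.

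Top2a (chr11:98992943-99024189, minus strand), the topoisomerase that untangles sister chromatids, was at 135, 82.2, 128, 218, 279 and 246 CPM in glia and at 1.57, 0.987, 3.30, 4.39, 1.31 and 4.41 CPM in neurons, in the order just given. The classes did not overlap, and the difference was 6.06 ± 0.41 on the log2 scale (SE; adjusted p = 1.5e-12). Cenpf (chr1:189640606-189688086, minus strand), a kinetochore protein of G2 and mitosis, ran from 62.2 to 332 CPM in glia, with a median of 180.4 CPM, and from 1.86 to 5.71 CPM in neurons, with a median of 2.53 CPM (log2 fold change 5.63 ± 0.53, adjusted p = 5.6e-10).

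Birc5 (chr11:117849251-117855743, plus strand), which encodes survivin, a subunit of the chromosomal passenger complex, ran from 93.1 to 176 CPM in glia and from 2.27 to 4.50 CPM in neurons, with medians of 114 and 3.09 CPM. Ube2c (chr2:164769898-164778822, plus strand), the ubiquitin-conjugating enzyme that serves the anaphase-promoting complex, ran from 90.6 to 156 CPM in glia and from 1.64 to 4.14 CPM in neurons, with medians of 129 and 2.85 CPM. Both were higher in glia in 6 of 6 libraries, with log2 fold changes of 5.20 ± 0.35 (adjusted p = 1.3e-12) and 5.39 ± 0.47 (adjusted p = 1.5e-10). These 2 genes, unlike Mki67, Top2a and Cenpf, did not have all their glial values of the second round above those of the first.

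The other 18 G2/M genes also had their lowest glial library above their highest neuronal one. Among the kinases and cyclins that drive entry into mitosis, the log2 fold change was 6.29 ± 0.35 for Cdk1, 6.33 ± 0.35 for Ccnb1 (cyclin B1) and 6.21 ± 0.25 for Aurkb, the kinase of the passenger complex. The smallest difference of the group was that of Aurka, the spindle pole kinase, at 2.87 ± 0.27, with 12.03 to 24.4 CPM in glia and 1.39 to 2.36 CPM in neurons. Bub1, a kinase of the spindle checkpoint, was sparse throughout, at 6.14 to 23.7 CPM in glia and 0.105 to 0.445 CPM in neurons. In neurons the counts were small but not zero, with 568 UMIs of Mki67 over the 6 libraries and 40 in the library with the fewest. The part of stray glial RNA in these counts was not tested.

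**Figure D1:**
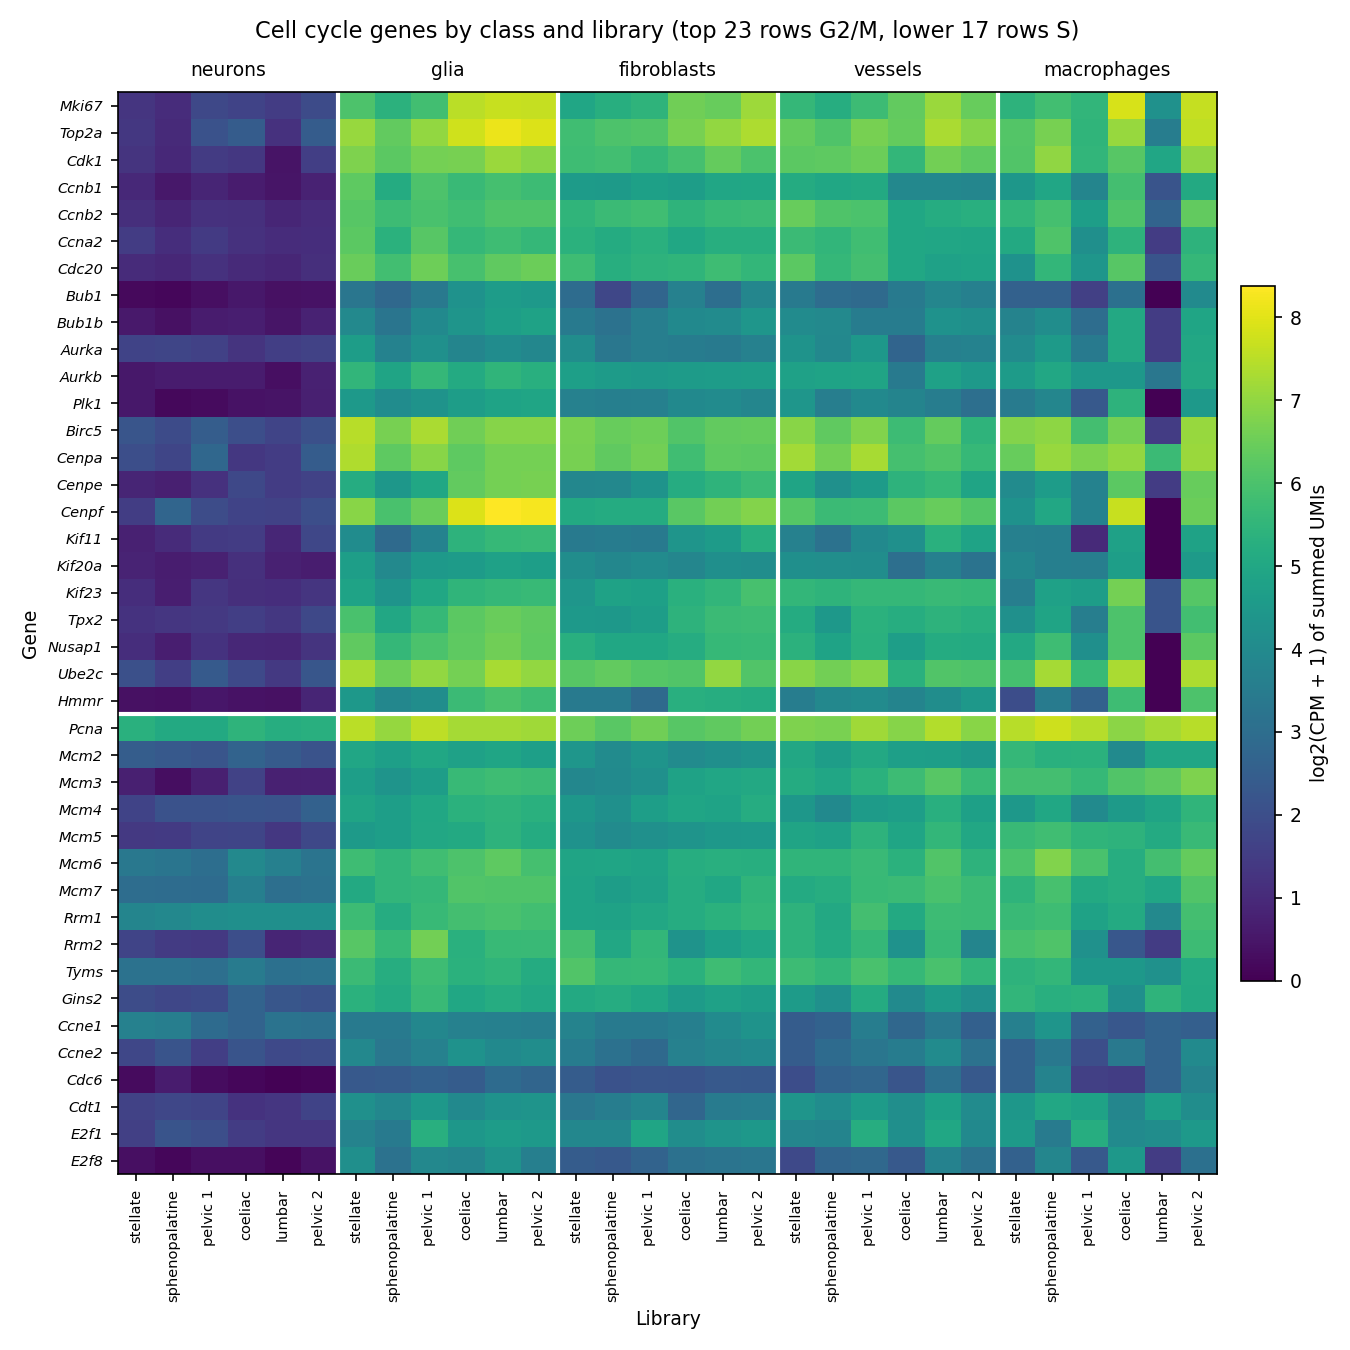
Level of each of the 40 genes, as log2(CPM + 1) on a colour scale, with genes in rows (23 G2/M genes above 17 S genes) and the 6 libraries of each of 5 classes in columns. Neurons are dark for all G2/M genes, with Mki67 at 1.10 to 2.79 CPM, and show Pcna at 32.9 to 42.3 CPM, while the other classes hold both groups.

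S genes were also higher in glia, by less, and several of them had RNA in neurons too. Their sum was 522 to 755 CPM in glia and 99.4 to 129 CPM in neurons, the median log2 fold change was 3.03, and 16 of 17 were called higher in glia. Pcna (chr2:132249162-132253314, minus strand), the sliding clamp of DNA polymerases, which also serves in DNA repair, stood in glia at 182, 131, 185, 149.8, 152 and 143 CPM in the stellate, sphenopalatine, pelvic 1, coeliac, lumbar and pelvic 2 libraries and in neurons at 38.8, 32.9, 33.3, 42.3, 35.9 and 38.4 CPM. The groups did not overlap, and the log2 fold change was 1.98 ± 0.13 (SE; adjusted p = 1.4e-12). The mouse genome has named pseudogenes of Pcna, as it has of Ccnb1, Ccnb2 and Tyms, so the counts of these 4 genes are less certain.

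Mcm6 and Mcm7 are subunits of the replicative helicase, whose 6 Mcm proteins unwind DNA at the fork. Mcm6 (chr1:128331590-128359664, minus strand) ran from 44.5 to 77.8 CPM in glia and from 7.22 to 14.3 CPM in neurons (log2 fold change 2.49 ± 0.19, adjusted p = 1.8e-11). Mcm7 (chr5:138164583-138172422, minus strand) ran from 33.1 to 67.4 CPM in glia and from 6.68 to 11.4 CPM in neurons (2.67 ± 0.17, adjusted p = 5.9e-13). Its exons overlap the microRNA genes Mir25 and Mir93 on the same strand and exons of Ap4m1 and Cops6 on the other, and the strand setting of the counting is not given in the sources used here.

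The subunits of ribonucleotide reductase, which makes the building blocks of DNA, parted from each other. Rrm2 (chr12:24708241-24714146, plus strand), the small subunit tied to S phase, ran from 38.8 to 94.7 CPM in glia and from 0.815 to 3.00 CPM in neurons, a log2 fold change of 5.03 ± 0.43 (adjusted p = 1.1e-10). Rrm1 (chr7:102441695-102469771, plus strand), the large subunit, ran from 35.2 to 61.1 CPM in glia and from 13.0 to 17.1 CPM in neurons, a log2 fold change of 1.62 ± 0.19 (adjusted p = 3.3e-08). Each of the 2 was higher in glia in 6 of 6 libraries.

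Among the other S genes, Mcm3 (5.42 ± 0.24), E2f8 (a repressor of the E2F family, 5.83 ± 0.39) and Cdc6 (a loader of the Mcm helicase, 4.56) differed most between glia and neurons on the log2 scale. Ccne1 (cyclin E1, which with Cdk2 takes cells into S phase) was the one member not called, at 9.77 to 13.8 CPM in glia and 5.39 to 11.8 CPM in neurons, with a log2 fold change of 0.35 ± 0.26 (edgeR adjusted p = 0.22) and a higher level in glia in 4 of 6 libraries. Its values overlapped between the classes.

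The same separation from neurons held for the other classes. In fibroblasts 40 of 40 members were called higher than in neurons (38.1% of all genes), with a median log2 fold change of 4.40, and in vessels 39 (38.9% of all genes), with a median of 4.44. In macrophages 39 were called (33.1% of all genes), with a median of 4.75. These medians are over all 40 members, for which that of glia against neurons was 5.01. None was called higher in neurons, where 37.4%, 37.6% and 38.5% of all genes were, so that 75.5%, 76.5% and 71.6% of all genes were called in either direction. Ccne1 was again the member that stood apart, with log2 fold changes against neurons of 0.69 in fibroblasts (adjusted p = 0.019), −0.36 in vessels (adjusted p = 0.26) and 0.27 in macrophages (adjusted p = 0.49). The lowest library lay above the highest neuronal library for 39 of 40 members in glia (24.5% of all genes), in fibroblasts (22.8%) and in vessels (25.2%), and for 24 of 40 in macrophages (16.4%), whose sums rest on as few as 35 cells. These 4 comparisons share the neurons and are not independent of each other.

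Glia and fibroblasts differed little in comparison. The G2/M genes summed to between 768 and 1257 CPM in fibroblasts, overlapping the lower part of the glial range, and the S genes to between 382 and 508 CPM, under the lowest glial sum. Between the classes 16 of 40 members were called higher in glia and 1 in fibroblasts, against 27.0% and 25% of all genes (52.0% in either direction), and the median log2 fold change was 0.55. The 8 G2/M genes called were Cdk1, Ccnb1, Bub1, Aurkb, Cenpe, Cenpf, Tpx2 and Nusap1. Cenpf had the largest difference among them (1.41 ± 0.43, adjusted p = 0.0087), followed by Ccnb1 (0.92 ± 0.28, adjusted p = 0.0077). Mki67 was not called, at 0.60 (adjusted p = 0.097). In fibroblasts it ran from 30.3 to 141 CPM.

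The 8 S genes called higher in glia were Pcna, Mcm2, Mcm3, Mcm5, Mcm6, Mcm7, Cdt1 and E2f8, so that 5 of the 6 helicase subunits were among them. Pcna was at 72.8 to 94.95 CPM in fibroblasts, below all glial values, with a log2 fold change of 0.74 ± 0.13 (adjusted p = 3.2e-05). Tyms, thymidylate synthase, was the member higher in fibroblasts, at 40.3 to 68.5 CPM against 35.01 to 53.2 CPM in glia (−0.38 ± 0.16, adjusted p = 0.048), and was higher in glia in 1 of 6 libraries. Without the stellate library 11 members were called between the classes and without pelvic 1 there were 10, and with total UMIs as the only scaling 23 were called higher in glia and 0 in fibroblasts.

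Against vessels, 14 of 40 members were called higher in glia and 0 in vessels, with a median log2 fold change of 0.48. Of all genes 29.0% and 26.4% were called in these directions (55.4% in either). The count higher in glia lay near the share of all genes, so it is no result about the members. The sum of the G2/M genes in vessels was 778 to 1188 CPM and that of the S genes 459 to 769 CPM. Of the 14, 9 were G2/M genes (Ccnb1, Cdc20, Aurkb, Cenpe, Cenpf, Kif20a, Tpx2, Nusap1 and Hmmr) and 5 were S genes (Mcm4, Gins2, Ccne1, Ccne2 and E2f8). Cenpf (1.28 ± 0.44, adjusted p = 0.017) and Ccnb1 (1.24 ± 0.30, adjusted p = 0.00093) were again the largest, Ccnb1 at 13.3 to 34.3 CPM in vessels and at 34.5 to 77.9 CPM in glia. Without the coeliac library 8 members were called, and without pelvic 2 there were 6.

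Against macrophages few members were called. Of the 23 G2/M genes 5 were higher in glia and 0 in macrophages, and of the 17 S genes 0 were higher in glia and 6 in macrophages, where 33.2% and 24.8% of all genes were called in these directions (58.0% in either), so the counts are no result about the members. The 5 were Ccnb1, Cdc20 (the activator of the anaphase-promoting complex), Bub1, Cenpf and Tpx2, with Cenpf at 1.61 ± 0.49 (adjusted p = 0.0066). The 6 were Pcna, Mcm2, Mcm3, Mcm5, Mcm6 and Cdt1. Mcm3 was at 48.2 to 107 CPM in macrophages and at 19.1 to 53.8 CPM in glia, lower in glia in 6 of 6 libraries (−1.30 ± 0.21, adjusted p = 1e-05). Mcm5 had a log2 fold change of −0.90 ± 0.16 (adjusted p = 4.1e-05).

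The split against macrophages depended on scaling. The median of all genes lay at 0.179 on the log2 scale in this comparison, and with total UMIs as the only scaling it lay at 0.469 and 12 members were called higher in glia and 2 in macrophages. Without the stellate library or without pelvic 1 there were 7 calls in place of 11, and without the lumbar library 8. The macrophages of the lumbar library, 42 cells in all, had no UMI of 8 G2/M genes (Bub1, Plk1, Cenpf, Kif11, Kif20a, Nusap1, Ube2c and Hmmr) and a G2/M sum of 148 CPM, against 557 to 1806 CPM in the macrophages of the other libraries.

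**Figure D2:**
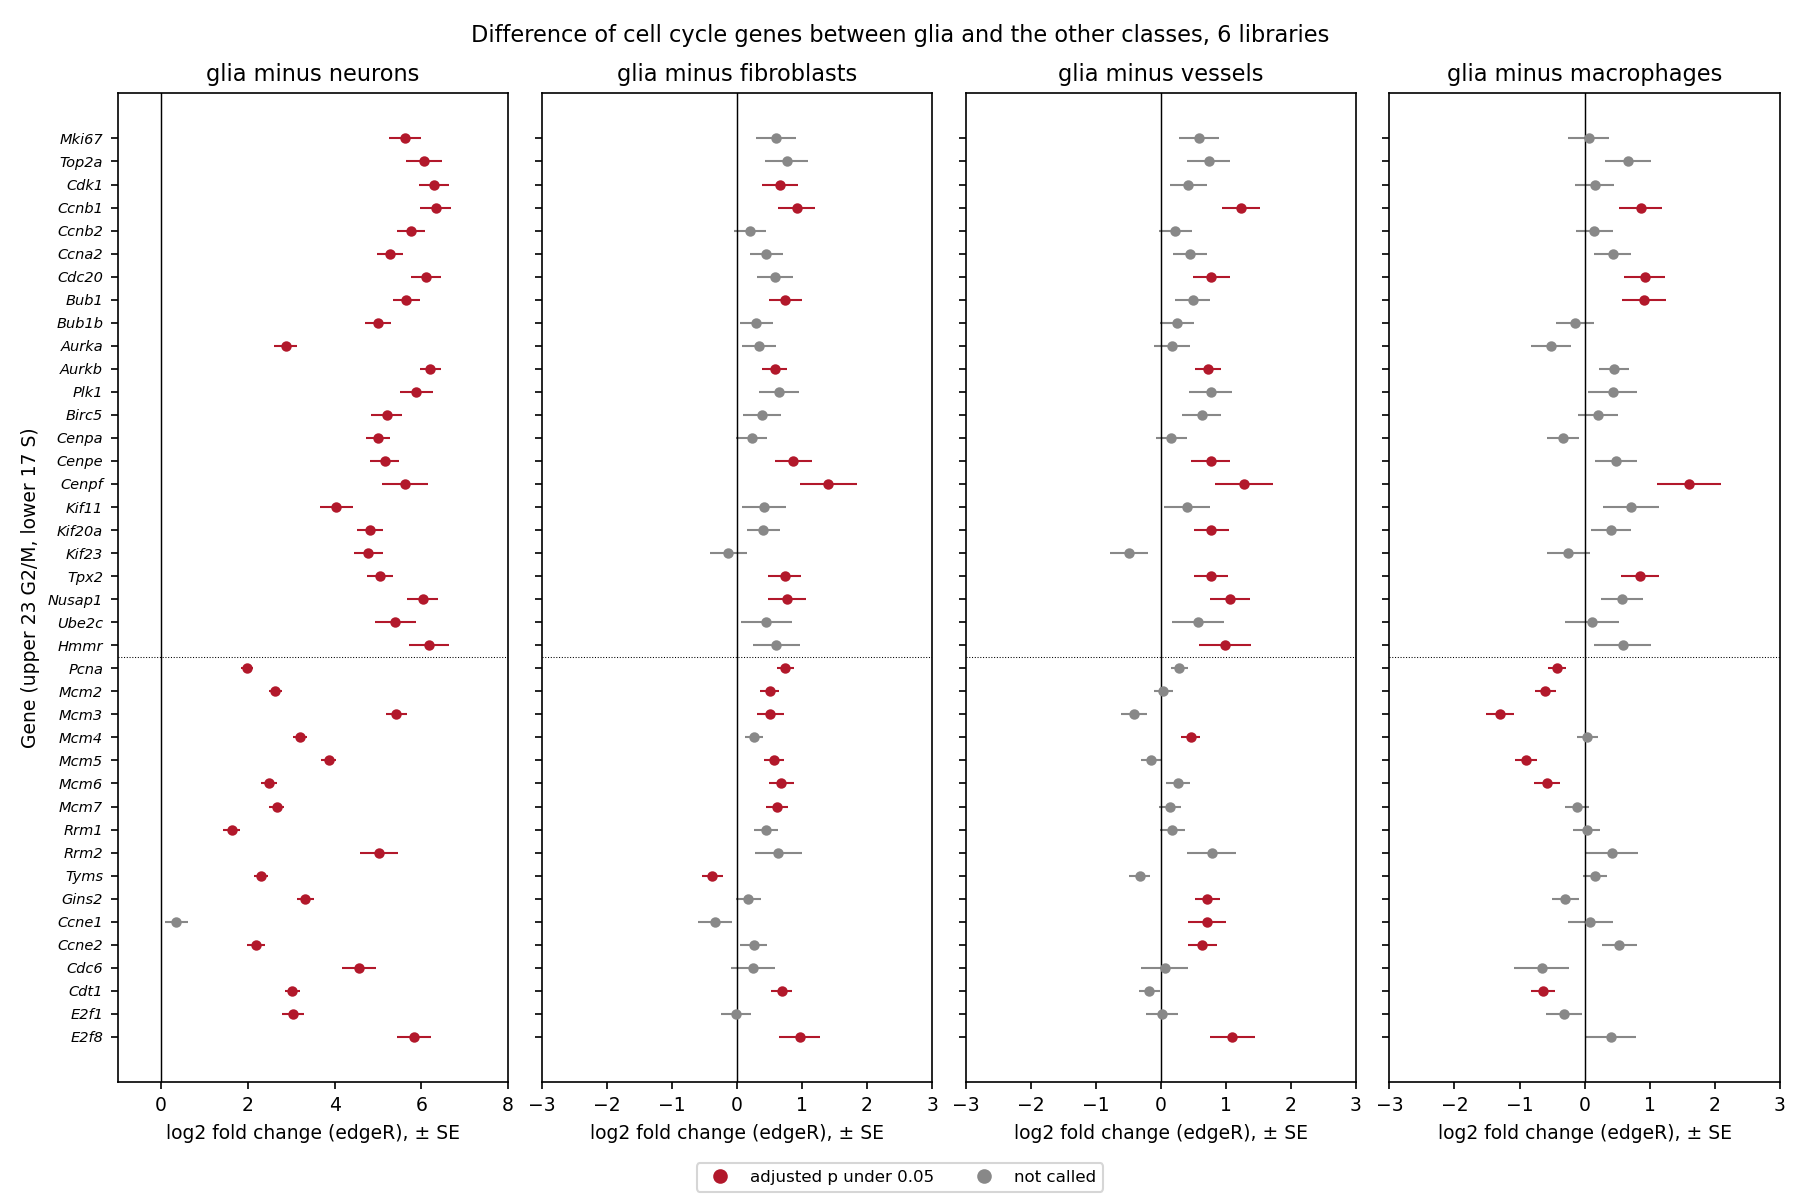
edgeR log2 fold change of each of the 40 genes between glia and, in separate panels, neurons, fibroblasts, vessels and macrophages, with bars of 1 SE and red points for an adjusted p under 0.05 (20 residual degrees of freedom). Against neurons the points run from 0.35 (Ccne1) to 6.33 (Ccnb1), while against the other classes they run from −1.30 to 1.61, with 17, 14 and 11 of 40 called.

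Shares of cells gave the levels a second reading. Each cell was thinned to 2000 UMIs, a depth that every cell of the 5 classes reached, and was counted as holding G2/M RNA when at least 3 of the 23 genes had a UMI. By this count 16.2% of the stellate glia (448 of 2771, exact 95% interval 14.8 to 17.6), 8.77% of the sphenopalatine glia (134 of 1528, 7.40 to 10.3) and 13.7% of the glia of pelvic 1 (235 of 1720, 12.1 to 15.4) held G2/M RNA. In the second round the shares were 11.1% in the coeliac (87 of 787, 8.95 to 13.5), 12.5% in the lumbar (108 of 863, 10.4 to 14.9) and 13.3% in pelvic 2 (75 of 564, 10.6 to 16.4). The interval of the sphenopalatine glia lay below those of the stellate and pelvic 1 glia, its companions in the round. It also lay below those of the lumbar and pelvic 2 glia, and overlapped that of the coeliac. The intervals cover counting error only, and neither ganglia nor rounds were tested.

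Neurons stood at 0.367%, 0.0525%, 0.560%, 0.844%, 0.108% and 0.548% in the order stellate, sphenopalatine, pelvic 1, coeliac, lumbar and pelvic 2, which rests on 10, 1, 5, 2, 1 and 2 cells. The difference between glia and neurons averaged 12.2 ± 2.46 percentage points (SD, n = 6 libraries) and had the same sign in 6 of 6, with an exact two-sided sign-flip permutation p = 0.0312, the smallest that 6 libraries allow, and p = 0.125 after adjustment over the 4 class comparisons. Without thinning, at the unequal depths given above, the share was between 4.07% and 40.3% in neurons and between 10.9% and 21.8% in glia, and the difference was 1.50 percentage points (exact permutation p = 0.719). The size of the difference in G2/M share thus depended on depth. At 4000 UMIs, where only cells with at least 4000 UMIs were counted, the difference was 18.8 percentage points. Within a class, too, cells counted as holding G2/M RNA were the deeper ones before thinning, with a median UMI count 1.21 to 1.63 times that of the other glia and up to 3.99 times in the other non-neuronal classes.

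Fibroblasts held G2/M RNA in 7.79% to 13.6% of cells, vessels in 7.23% to 18.3% and macrophages in 6.45% to 17.1% in 5 libraries, while the lumbar macrophages had 0 of 42 cells, which allows a share of up to 7.14%. Averaged over libraries the shares were 12.6 ± 2.51% in glia, 9.93 ± 2.05% in fibroblasts, 13.9 ± 3.95% in vessels and 11.1 ± 6.60% in macrophages (SD, n = 6). The difference of glia from fibroblasts was 2.64 ± 2.51 percentage points, with glia higher in 5 of 6 libraries (exact permutation p = 0.0938, adjusted p = 0.188), and was −1.27 points without thinning. The differences from vessels (−1.32 ± 2.94, exact permutation p = 0.312, adjusted p = 0.417) and from macrophages (1.48 ± 7.59, exact permutation p = 0.656, adjusted p = 0.656) were smaller than their spread, and both changed sign under other settings.

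**Figure D3:**
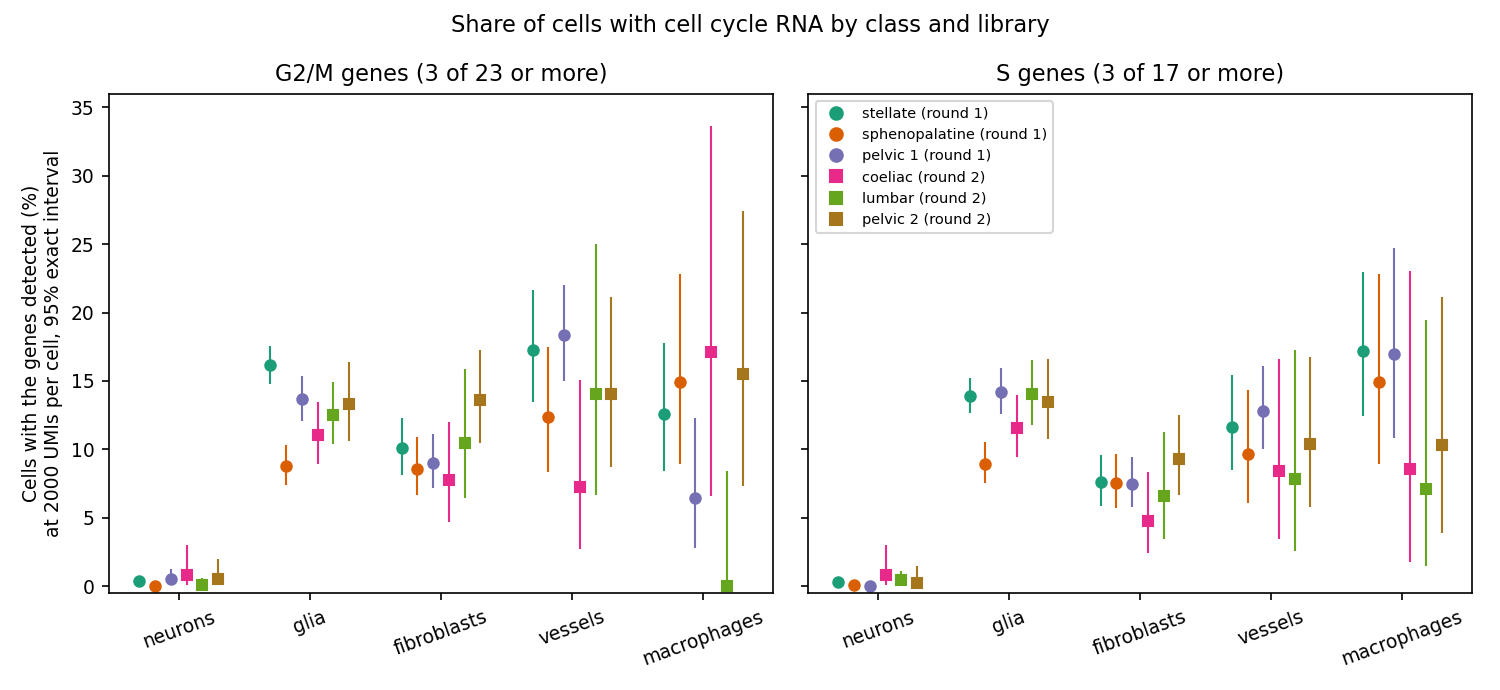
Percent of cells, thinned to 2000 UMIs, with a UMI of at least 3 of the 23 G2/M genes or at least 3 of the 17 S genes, by class and library, with exact 95% intervals and with circles for the first round and squares for the second. Neurons lie at 0.0525% to 0.844% for G2/M RNA and glia at 8.77% to 16.2%.

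S RNA, counted the same way over the 17 S genes, was present in 13.9%, 8.97%, 14.2%, 11.6%, 14.0% and 13.5% of glia in the same order of libraries. In neurons it was present in at most 0.844% of cells, and pelvic 1 had 0 of 893. Fibroblasts lay between 4.76% and 9.31%, vessels between 7.81% and 12.8% and macrophages between 7.14% and 17.2%. Of the glia with G2/M RNA, 33.7%, 35.8%, 46.0%, 33.3%, 39.8% and 40.0% also held S RNA, against 10.1%, 6.38%, 9.16%, 8.86%, 10.3% and 9.41% of the other glia. Counting either kind, 14.6% to 24.6% of glia held cell cycle RNA. Without thinning, at the unequal depths given above, S RNA was present in 37.7% to 80.0% of neurons and in 19.2% to 45.7% of glia. The neuronal share was then the higher in every library, so the direction for S RNA depended on depth.

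The count of G2/M genes per cell was not evenly spread. Of all glia 74.4% had no G2/M gene with a UMI, 3.50% had 2 or 3 genes and lay near the threshold, and 5.75% had 10 or more, whereas 94.9% of neurons had none and 0.45% had 2 or 3. Within the glia that held G2/M RNA, a UMI of Birc5 was seen in 72.6% of cells on average over libraries, of Top2a in 69.4% and of Cdk1 in 53.5%, and of the S genes Pcna in 35.9%, Rrm2 in 32.5% and Cdc6 in 1.73%. Mki67 was seen in 42.2% to 53.0% of these glia in the first round and in 77.3% to 84.3% in the second, and Cenpf in 45.1% to 53.8% and 66.7% to 78.7%, so that the order of the genes differed between the rounds.

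These glia formed groups of their own. When the non-neuronal cells of each library were clustered without the genes of the cell cycle lists, nearly all of them fell into 1 cluster, or 2 in the stellate library, of the 4 to 6 glial clusters. These clusters were picked as the glial ones in which most cells held G2/M RNA. Their own shares, between 54.6% and 100.0%, thus follow in part from that choice. They held between 84.3% (lumbar) and 98.2% (stellate) of the glia with G2/M RNA. In the other glial clusters the share was at most 2.45%, except for a lumbar cluster of 22 cells with 27.3%. Genes that rise and fall with the cycle but are on no list could still shape the clusters, so the grouping is a description.

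Some of the few neurons with G2/M RNA carried glial RNA as well. In the stellate, sphenopalatine, pelvic 1 and pelvic 2 libraries their median of the mean normalised value of 5 glial markers was 0.139, 1.15, 0.497 and 1.12, while that of the other neurons was 0. In the coeliac and lumbar libraries, with 2 cells and 1 cell, it was 0. Their median doublet score was 0.0640 to 0.374 over the libraries, against 0.0221 to 0.0400 in the other neurons. Restricted to a glial mean under 0.1, 4, 0, 1, 2, 1 and 0 neurons with G2/M RNA were left. Under this restriction 39 of 40 members were called higher in glia. The median log2 fold change over all members was 5.27, against 5.01 before the restriction. The restriction takes glial RNA out of the neuronal sums, so a kept difference is no check on their G2/M RNA.

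The level of several genes in glia followed the round. Among the G2/M genes 11 of 23, and among the S genes 7 of 17, had all 3 libraries of the second round above all 3 of the first, against 31.6% of all genes, and none had the reverse, against 25.7% of all genes. The ratio of the round means was 4.05 for Kif11 (the kinesin that pushes spindle poles apart), 3.62 for Mki67, 3.30 for Cenpf, 3.28 for Hmmr, 3.22 for Cenpe (a kinetochore kinesin) and 2.24 for Mcm3. Round, kit, facility and ganglion cannot be told apart in these ratios.

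The pelvic ganglion was sampled in both rounds. Its glial CPM in pelvic 2 was 4.08 times that in pelvic 1 for Kif11, 3.55 times for Cenpf, 3.53 times for Mki67, 3.33 times for Hmmr, 3.30 times for Cenpe and 2.31 times for Bub1. Ube2c stood at 1.01 times, Birc5 at 0.72 times, E2f1 at 0.59 times and Rrm2 at 0.53 times its pelvic 1 value. In all, 6 of 23 G2/M genes (26.1%) and 1 of 17 S genes (5.88%) were more than 2-fold higher in pelvic 2, against 13.3% of 10996 genes. In pelvic fibroblasts the same held for 9 of 23 G2/M genes (39.1%), against 8.47% of all genes, and in pelvic macrophages for 8 of the 10 with enough UMIs (80.0%), against 8.63%. It held for 0 of 23 in pelvic vessels, against 10.3% of all genes, and for 0 of 20 in pelvic neurons, against 4.40%. More than 2-fold lower in pelvic vessels were 5 of 23 G2/M genes and 3 of 15 S genes, against 377 of 9980 genes. The share of pelvic glia with G2/M RNA was 13.7% in the first library and 13.3% in the second. For pelvic fibroblasts the cells with G2/M RNA were 76 of 844 in the first and 57 of 419 in the second. For macrophages they were 8 of 124 and 9 of 58, for vessels 90 of 491 and 19 of 135, and for neurons 5 of 893 and 2 of 365. Each library is 1 sample, so these ratios have no replicate check.

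**Figure D4:**
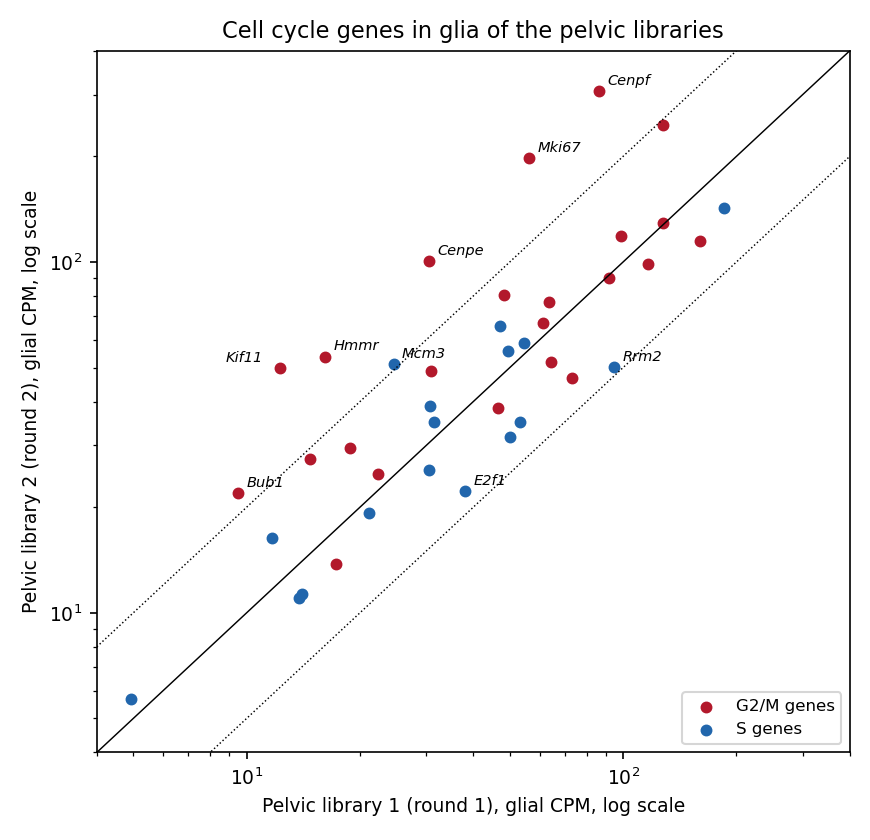
Glial level (CPM) of the 40 genes in pelvic 1 (horizontal) and pelvic 2 (vertical), both on log axes, with G2/M and S genes in different colours and dotted lines at a 2-fold difference. Kif11, Cenpf, Mki67, Hmmr, Cenpe, Bub1 and Mcm3 lie above the upper line, and Rrm2 lies near the lower one.

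In a test of whether the difference of each class from neurons was another in the pelvic ganglion than in the rest, 0 of 40 members were called for glia, fibroblasts, vessels or macrophages by edgeR's quasi-likelihood test, with the lowest adjusted p between 0.269 and 0.671. At an unadjusted p under 0.05 there were 1, 1, 1 and 0 members in these classes. Of all 14553 genes tested, 151, 359, 177 and 47 were called after adjustment. So few genes were called that 0 of 40 is no result about the members. The test was added after the data had been seen, and no other ganglion allows it.

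The regulators above these genes were less uniform. In 7 further lists of 106 genes in all, none of them members, where 37.0% of all genes tested were higher in glia and 37.5% in neurons, 26 of 28 other DNA replication genes and 40 of 42 other mitosis genes were called higher in glia than in neurons and 0 lower, with median log2 fold changes of 2.28 and 4.52. Examples are Tk1 (thymidine kinase, 5.65), Uhrf1 (5.32), Clspn (claspin, 4.71), Aspm (5.93), Knl1 (5.93) and Pbk (5.79). Of 7 checkpoint genes 5 were higher in glia, among them Wee1, the kinase that restrains Cdk1 (3.23), Chek2 (2.88) and Tipin (2.68), and 0 were lower. Of the 6 genes of MuvB with Mybl2 and Foxm1, 5 were higher, with Mybl2 at 3.95, Foxm1 at 3.71 and Lin9 at 2.20, and Lin37 was lower (−0.70). Of 9 pocket protein and other E2F genes 5 were higher, led by Rbl1 (3.79), E2f7 (3.39) and E2f5 (1.55), and 1 was lower.

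The G1 cyclins and their kinases were higher in glia for 5 of 7 genes and lower for 1. Cdk2 (5.44 ± 0.30), Cdk6 (5.38 ± 0.49) and the D cyclin Ccnd2 (4.70 ± 0.49) differed most. Ccnd2 ran from 97.1 to 229.9 CPM in glia and from 0.940 to 20.5 CPM in neurons, and reached 258 to 506 CPM in fibroblasts and 200.1 to 454 CPM in vessels. Ccnd1 was not called, at 0.37.

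Among the CDK inhibitors, which hold cells out of the cycle, 3 of 7 were higher in glia and 2 in neurons, near the shares of all genes, so the count is no result about the list. Cdkn2c, which encodes the INK4 protein p18, was at 66.5 to 197 CPM in glia and 0.525 to 2.37 CPM in neurons (log2 fold change 6.19 ± 0.30, higher in glia in 6 of 6 libraries). Cdkn1a, which encodes p21, was at 38.2 to 70.5 CPM in glia, 85.3 to 327 CPM in neurons and 180.5 to 358 CPM in macrophages, and was lower in glia than in neurons in 6 of 6 libraries (−1.46 ± 0.24, adjusted p = 8.1e-06). Cdkn2a had a mean of 1.30 CPM in glia and 0.0424 CPM in neurons and rests on few UMIs. Named after their values had been seen, Cdkn2d (p19) was lower in glia (−1.06 ± 0.11) and Cdkn1b (p27) was not called (0.05, adjusted p = 0.76), the latter at 14.4 to 16.52 CPM in the glia of the first round and 69.1 to 90.6 CPM in those of the second.

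**Figure D5:**
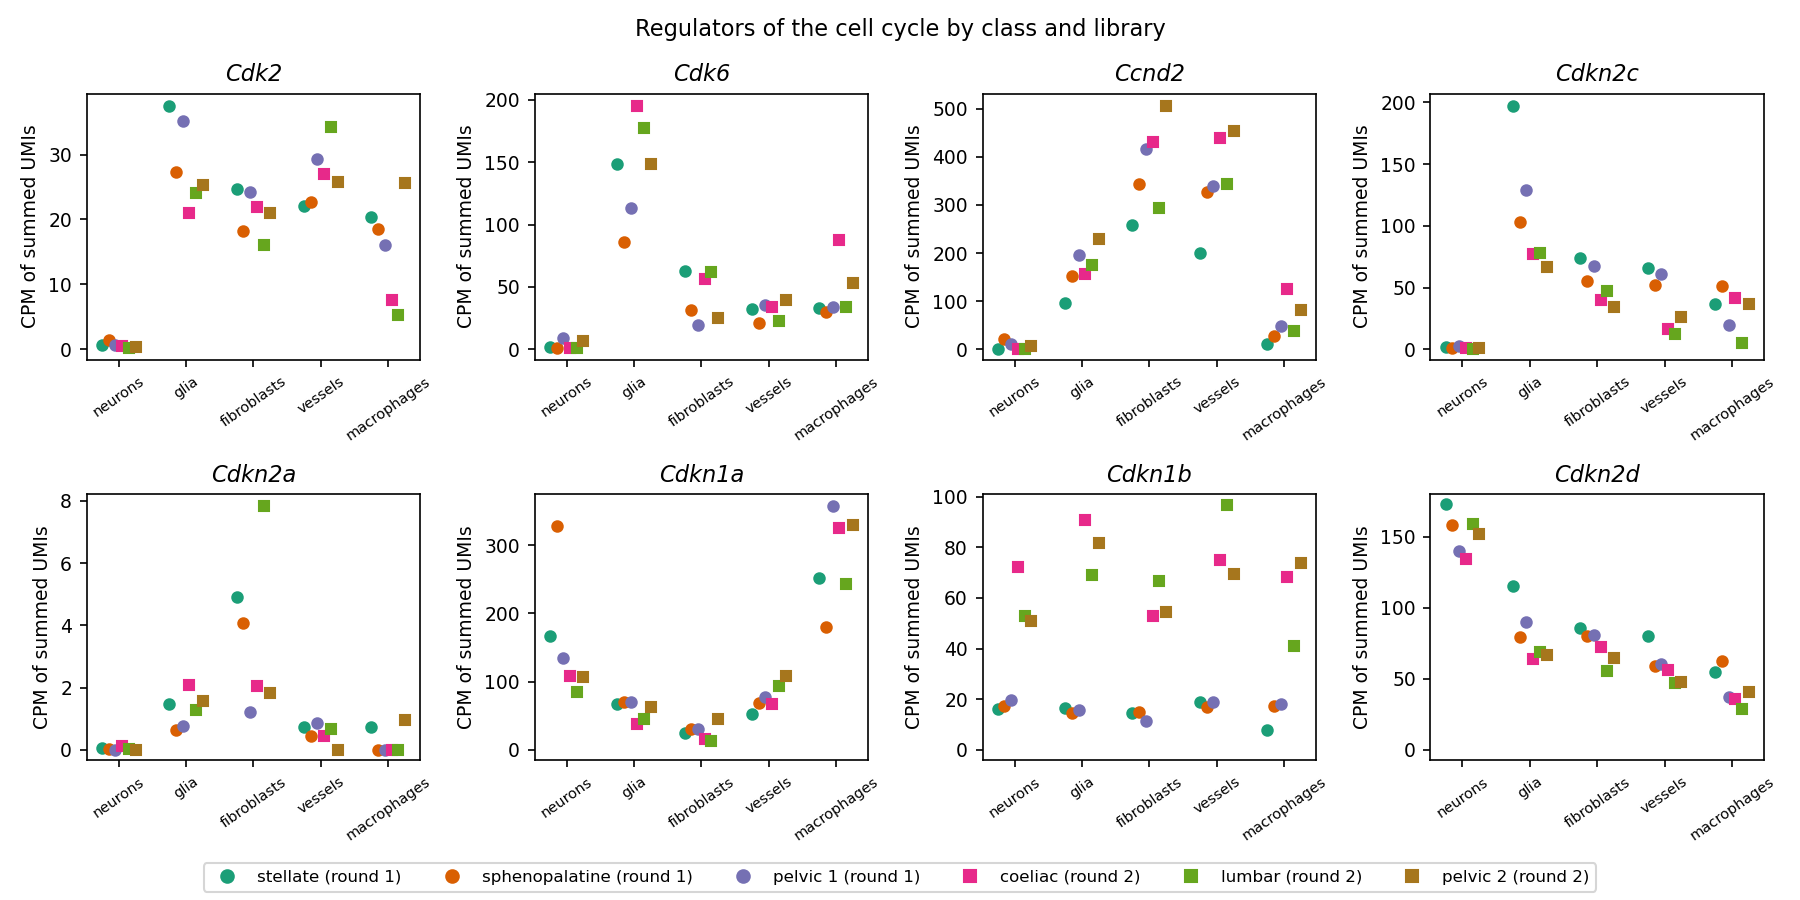
Level (CPM) of 8 regulators, the kinases Cdk2 and Cdk6, the cyclin Ccnd2 and the inhibitors Cdkn2c, Cdkn2a, Cdkn1a, Cdkn1b and Cdkn2d, in each class, with 1 point per library. Cdkn2c lies at 66.5 to 197 CPM in glia and under 2.38 CPM in neurons, while Cdkn1a lies at 85.3 to 327 CPM in neurons and at 180.5 to 358 CPM in macrophages.

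Among the genes outside the lists of members whose level followed the summed G2/M level most closely over the 30 sums of class and library, by Spearman's rho among 14553 genes, were Cdca2 (0.948), Ckap2l (0.948), Spag5 (0.943), Kif2c (0.935), Prc1 (0.933), Cep55 (0.928), Sgo1 (0.928), Kifc1 (0.921) and Nek2 (0.920). Of these 9, 6 belonged to the list of other mitosis genes. The G2/M members had rho between 0.703 and 0.958, but each is part of the sum it was compared with, which raises its rho by construction. The S members, which are not part of it, had rho between 0.171 (Ccne1) and 0.887. The median over all genes was 0.0474. The sums share libraries and depth, and the values are descriptive.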

How the data were processed

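The authors deposited a matrix of raw UMI counts per gene and droplet for each of 6 libraries, made, per the submitters' processing notes, with Cell Ranger 6.0.1 on mm10. Each column of the matrices belongs to a mapped library, so 0 columns were left unmapped. Ganglia had been digested with papain and then collagenase and dispase, and cells cleaned on a density gradient.

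Droplets with more than 1500 and fewer than 11000 genes and under 15% mitochondrial counts were kept, as the study did. Neurons were cells whose mean sctransform 0.4.2 value of Stmn2, Stmn3, Gap43 and Tubb3 exceeded 3, and those with a mean of 5 glial markers of at least 1.15 were left out as mixed droplets. Other cells were clustered per library in scanpy 1.11.5 (Python 3.11.15) on 2000 variable genes without the cell cycle lists (30 components, 15 neighbours, leidenalg 0.10.2 at resolution 1), and clusters were named from marker lists. The rule that most of a list's markers be detected was added after the data had been seen. Scrublet doublet scores (in scanpy) served as an alternative that left out the top 8% of cells.

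Counts were summed by class and library (30 sums, each of at least 20 cells). edgeR 4.0.16 (R 4.3.3) fitted library and class by quasi-likelihood with 20 residual degrees of freedom, adjusting over 14553 genes. On simulated data for glia and neurons with 13971 genes it recovered 90 of 100 genes changed by 2 and 85 of 100 changed by 1 on the log2 scale, with 7 false calls. Apart from the changed genes, the simulated sums had 1 mean profile and a fixed spread. In the data 74.5% of genes were called between these classes. The recovery thus checks the procedure and does not give its error rate here. The edgeR p-values set class differences against the spread left after library and class, pooled over all classes. They are not taken over the spread of a given class difference alone. Nothing in the labels ties libraries to separate animals. Shares were compared over libraries by an exact two-sided sign-flip test (SciPy 1.17.1), adjusted over 4 comparisons. Intervals are exact binomial ones and cover counting error only, as does the limit for a 0, which is 3 counts.

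The genes named with full values were the 5 G2/M and 5 S members with the highest mean CPM over the glial sums, up to 3 called genes per further list by size of the difference between glia and neurons, and the 10 genes most alike, with genes added after their values were seen marked as such. Of the 10, 1 is not reported here, nor is the driver of the Cre transgene. Members and lists were chosen with earlier results of these data known. Gene positions are those of GENCODE on GRCm38, and promoters those of RefSeq on GRCm38.p6. Exons of 10 members overlap a gene on the other strand. The alternatives tried were DESeq2 1.42.0, other scalings, filters, class definitions, thinning depths and thresholds, each round alone and each library left out.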

Additional observations from a re-analysis of the deposited data

Results flagged for a closer look

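Of the clusters in none of the 5 classes, 6 had more than 3 cells with G2/M RNA, at shares above the 0.0525% to 0.844% of neurons. Clusters with 1 to 3 such cells are not listed, although some lay above neurons too. In the stellate library an unnamed cluster led by Hbb-bs, Hba-a1, Agtr2, Sytl4 and Pclaf had 16 of 62 cells with G2/M RNA, a share of 25.8% (exact 95% interval 15.5 to 38.5). Its neuronal markers summed to 8808 CPM and its glial markers to 3582 CPM, and 40.3% of its cells were among those with the highest doublet scores. The part of doublets in its share was not tested.

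An unnamed coeliac cluster led by Cartpt, Sytl4, Prox1, Cfap61 and Insm1 had 7 of 51 cells with G2/M RNA (13.7%). A lumbar cluster with neuronal markers, led by Cartpt, Sytl4 and Agtr2, had 5 of 27 (18.5%). An unnamed sphenopalatine cluster led by Hba-a1, Hba-a2 and Hbb-bs had 4 of 54 cells (7.41%). In the coeliac, lumbar and sphenopalatine clusters, 17.6%, 29.6% and 44.4% of cells were among those with the highest doublet scores. Their glial markers summed to 1033, 2608 and 1734 CPM in the same order. The part of doublets in their shares was not tested either.

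The chromaffin-like clusters of the pelvic ganglion had 12 of 164 cells with G2/M RNA in pelvic 1 (7.32%) and 4 of 34 in pelvic 2 (11.8%). They were named from a list of Chga, Chgb, Dbh, Pnmt, Slc18a1 and Th. These markers summed to 8080 and 14407 CPM in the 2 clusters, against 439 to 2794 CPM in neurons. Their neuronal markers summed to 5025 and 4612 CPM, and their cell type was not tested further. None of these clusters entered a comparison.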

How the results depend on the processing

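Against neurons, 36 to 40 members were called higher in glia under all alternatives run (36 of 36 that passed the filter after thinning), and the 10 named members kept direction and call in all. Called between glia and fibroblasts were 10 members without a library term, 5 with classes set by marker counts per cell, 31 without high doublet scores, 10 in the first round alone and 5 in the second. Between glia and vessels there were 7 without a library term, 23 with at least 50 cells per sum, 5 after thinning, 25 without high doublet scores and 4 in the first round. Between glia and macrophages there were 6 after thinning, 7 by marker counts and 2 in the second round. With each library left out in turn the counts ran from 39 to 39 for glia and neurons, 10 to 16 for fibroblasts, 6 to 15 for vessels and 7 to 12 for macrophages. The cause was not tested.

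The share difference between glia and vessels became 1.66 points without high doublet scores, 1.28 with at least 5 genes and 0.50 in the second round. That between glia and fibroblasts became −1.27 without thinning, and that between glia and macrophages −4.45 without thinning, −0.56 with at least 2 genes and −0.73 without the lumbar library. With each library left out, the differences ran from 11.4 to 12.9 for neurons, 1.96 to 3.23 for fibroblasts, −2.34 to −0.65 for vessels and −0.73 to 3.01 for macrophages. The glial share of the stellate, sphenopalatine, pelvic 1, coeliac, lumbar and pelvic 2 libraries was 18.4%, 10.9%, 16.45%, 18.4%, 19.9% and 21.8% without thinning. With at least 2 genes it was 18.4%, 10.5%, 15.9%, 13.6% and 15.2% in the first 5, with at least 5 genes 13.2%, 7.26%, 11.0% and 10.3% in stellate, sphenopalatine, pelvic 1 and pelvic 2, and at 4000 UMIs 37.9%, 11.9% and 24.0% in the first round. The setting of 4000 UMIs counted only cells with at least 4000 UMIs, and stellate glia had a median of 3475 UMIs. Its shares are thus not those of the same glia at greater depth. Stellate glia were at 11.7% when cells over 500 genes were kept, which raised their number from 2771 to 4513.

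Ganglia could not be paired by replicate, because only the pelvic ganglion has a second replicate number and no groups share 2 numbers. Classes were compared within libraries throughout, with shares paired by library and a library term in the edgeR fit. Macrophages rest on 35 to 215 cells a library.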

Other observations

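Vessels pool endothelial and mural cells (pericytes and smooth muscle), whose sums of the G2/M genes are given apart here. In the stellate, sphenopalatine, pelvic 1, coeliac, lumbar and pelvic 2 libraries the 23 genes summed to 1041, 632, 939, 748, 1293 and 471 CPM in endothelial cells and to 1789, 1855, 1607, 914, 263 and 1911 CPM in mural cells. The mural sum was the higher in 5 of 6 libraries, and the lumbar library, with 27 mural and 37 endothelial cells, was the other. The S genes summed to 452 to 829 CPM in endothelial cells and 353 to 681 CPM in mural cells. The difference was not tested.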
